A study of Mus musculus with 2 samples.

Results

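The genes that mark and direct the oligodendrocyte lineage were followed in the neural tube of newborn mice. Their symbols matched 10 of 43346 gene rows: the transcription factor genes Olig1, Olig2, Sox8, Sox10, Nkx2-2, Nkx6-2 and Myrf, the surface protein genes Pdgfra and Cspg4, and the receptor gene Gpr17. All 10 had exactly 1 row. The series holds total RNA-seq libraries of 2 B6NCrl pups, taken on postnatal day 0, with a single neural tube from each pup and a shared litter. Sex was not collected, and the labels name no treatment or allele, so the libraries form a single group (n = 2) without a reference condition. Expected counts over genes summed to 40003518 for pup 2 and 26916916 for pup 1. With a single library from each pup, a difference between them could not be tested and carries no p-value.

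Oligodendrocytes wrap axons of the central nervous system in myelin. Their precursors arise in the ventral neural tube under Olig2 and divide in response to PDGF through the receptor encoded by Pdgfra. Sox10 and Nkx2-2 then act with Myrf, which switches on myelin genes, while Gpr17 marks a committed stage between dividing precursor and mature cell. Several of these genes are also used elsewhere: Sox10 in Schwann cells, Cspg4 in pericytes, Pdgfra in fibroblasts and Nkx2-2 in the progenitors next to the floor plate. In whole tissue, fewer cells of a type and less RNA per cell cannot be told apart. The neuronal gene Tubb3 stood at 915 TPM in pup 2 and 1094 in pup 1, while the forebrain genes Otx2 and Emx2 were at or below 0.12 TPM in each library. The trunk gene Hoxb6 was at 84.2 TPM in pup 2 and 94.3 TPM in pup 1. Hoxc8, a trunk gene that marks position along the body, was at 52.0 TPM in pup 2 and 22.8 TPM in pup 1 (2.34-fold after TMM scaling of counts), so the pups differed in a positional gene, and its part in other differences between them was not tested.

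Levels are given as TPM, a unit scaled to the same total in each library and divided by transcript length, so that they can be set side by side between genes. In each of the libraries all 10 genes reached 1 TPM or more, against 35.5% of all gene rows and 63.8% of nuclear protein-coding rows. They spanned a 73.9-fold range of mean level, and their median of 18.8 TPM was close to the 19.3 TPM of the 13544 gene rows averaging 100 counts or more.

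Olig1 stood far above the others. It encodes a basic helix-loop-helix factor of precursors and oligodendrocytes, and it lies on chromosome 16 (chr16:91269772-91271933, plus strand, GRCm38). It had 166 TPM in pup 2 and 155 TPM in pup 1, or 160 ± 8.09 (SD, n = 2), from 9110 and 5507 counts. It alone made up 52.6% of the summed TPM of the 10 genes in pup 2 and 52.7% in pup 1, and its mean level ranked 961st among nuclear protein-coding genes, with 95.5% of them below it. Olig2, its paralog and the factor that first specifies the lineage, lies 41094 bases away on the same strand (chr16:91225457-91228677). It had 24.9 TPM in pup 2 and 17.9 TPM in pup 1. The deposited TPM intervals, 23.1 to 25.5 in pup 2 and 16.1 to 18.7 in pup 1, did not overlap.

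The ratio of Olig1 to Olig2 was therefore 6.69 in pup 2 and 8.63 in pup 1. Reads shared between the paralogs could blur this ratio, so the longest run of identical bases in their transcripts is shown, with the same run for the SOXE paralogs Sox10 and Sox8. Both runs are coding in both genes and were read from the GENCODE M21 transcripts on GRCm38.
Olig1 and Olig2, 17 bases, chr16:91270168-91270184 in Olig1: AAGATCAACAGCCGCGA
Sox10 and Sox8, 26 bases, chr15:79163364-79163389 in Sox10: GCCTTCATGGTGTGGGCACAGGCGGC
The deposited effective lengths were the transcript length minus 99 for all 101408 transcripts with a positive value. That corresponds to a fixed length of 100 bases in the quantification, which is not a measured fragment size. Neither run reaches 100 bases. Stretches with mismatches were not searched, so whether reads were shared between the paralogs was not tested. The deposited Olig2 transcript has 2437 bases and the M21 one 2530, so the Olig2 part of that comparison rests on the longer model.

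The SOXE factors were next. Sox8, whose product acts beside Sox10 in precursors, had 34.8 TPM in pup 2 and 35.6 TPM in pup 1 (chr17:25565892-25570686, minus strand). Sox10, which is needed for terminal differentiation, had 25.2 TPM in pup 2 and 23.6 TPM in pup 1 (chr15:79154908-79165240, minus strand). The ratio of Sox10 to Sox8 was 0.725 in pup 2 and 0.661 in pup 1, so Sox8 was the higher of the pair in both libraries. Nkx2-2, a homeodomain factor that promotes differentiation in precursors, had 12.9 TPM in pup 2 and 10.6 TPM in pup 1 (chr2:147177546-147194243, minus strand), and its intervals overlapped. Together the 5 lineage factors summed to 264 TPM in pup 2 and 243 TPM in pup 1.

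The precursor surface proteins differed from each other in level and in direction. Pdgfra had 16.4 TPM in pup 2 and 15.97 TPM in pup 1, a spread of 0.283 TPM (SD, n = 2) around 16.2 (chr5:75152292-75198215, plus strand). Cspg4, which encodes the NG2 proteoglycan, had 6.35 TPM in pup 2 and 7.79 TPM in pup 1 (chr9:56865033-56899870, plus strand). It was the one gene of the 10 whose interval lay lower in pup 2. Gpr17, a G protein-coupled receptor of committed precursors, had 22.0 TPM in pup 2 and 20.99 TPM in pup 1 (chr18:31942997-31949636, minus strand). Its level was above that of both precursor genes in each library.

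The differentiation factors were lowest. Nkx6-2, a homeodomain factor of maturing oligodendrocytes, had 4.44 TPM in pup 2 and 4.55 TPM in pup 1 (chr7:139579376-139582797, minus strand). Myrf, the membrane-bound factor that is cleaved to activate myelin genes, had 2.64 TPM in pup 2 and 1.7 TPM in pup 1, from 324 and 139 counts (chr19:10208272-10240748, minus strand). Of the nuclear protein-coding genes, 40.6% had a lower mean TPM than Myrf. The order of mean TPM ran from Olig1 through Sox8, Sox10, Gpr17, Olig2, Pdgfra, Nkx2-2, Cspg4 and Nkx6-2 to Myrf. The TPM values of neighbours, without their intervals, were apart in both libraries for every pair except Gpr17 and Olig2. In pup 1 the deposited intervals of Olig2, 16.1 to 18.7 TPM, and Pdgfra, 14.7 to 16.2 TPM, overlapped. With 2 libraries, no likeness of pattern between genes was computed.

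**Figure D1:**
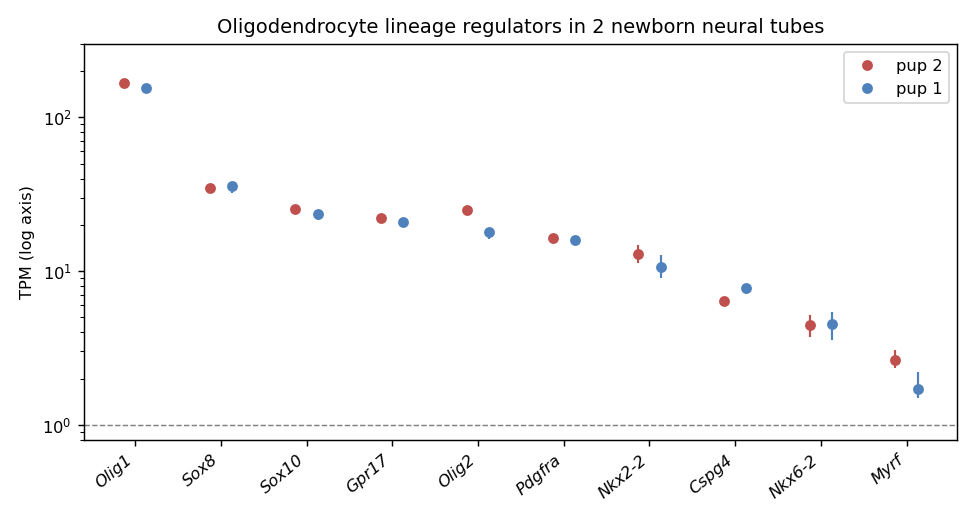
TPM of the 10 genes (log axis) in pup 2 (left point of each pair) and pup 1 (right point), ordered by mean TPM. Vertical lines are the deposited intervals (hidden by the point where short), which leave out the Olig1 point in both pups, and the dashed line is a TPM of 1; Olig1 stands at 166 and 155 TPM and Myrf at 2.64 and 1.7 TPM.

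Precursor genes exceeded the late differentiation factors and fell short of Gpr17. Pdgfra over Myrf was 6.2 in pup 2 and 9.39 in pup 1, or 7.8 ± 2.26 (SD, n = 2), and Cspg4 over Myrf was 2.41 and 4.58. With all transcripts, Pdgfra over Nkx6-2 was steadier, at 3.69 in pup 2 and 3.51 in pup 1. With protein-coding transcripts only, it was 6.44 in pup 2 and 9.18 in pup 1. Against the committed-stage gene Gpr17, Pdgfra stood at 0.743 in pup 2 and 0.761 in pup 1, and Cspg4 at 0.288 and 0.371. The sum of Pdgfra and Cspg4 over the sum of Gpr17, Myrf and Nkx6-2 was 0.78 in pup 2 and 0.872 in pup 1. Gpr17 carries most of that denominator: without it the ratio was 3.21 in pup 2 and 3.8 in pup 1.

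The 17 ratios computed between members cover chosen pairs and leave out Gpr17 with Olig2, whose order turned between the pups. All 17 were on the same side of 1 in both pups, and 10 were lower in pup 2. All ratios over Myrf were among these, and they share that denominator, so they are not independent of each other. Gpr17 over Myrf was 8.35 in pup 2 and 12.3 in pup 1, and Sox10 over Myrf 9.56 and 13.9. Nkx2-2 over Myrf was 4.89 and 6.25, and Olig2 over Myrf 9.41 and 10.5. Within the differentiation pair, Myrf over Nkx6-2 was 0.595 in pup 2 and 0.374 in pup 1. The unit matters here, since Myrf transcripts are longer than those of Nkx6-2: on counts not divided by length that ratio was 1.88 in pup 2 and 1.12 in pup 1, so the order of the pair turns. The sum of precursor over differentiation genes also crossed 1 on counts, at 1.19 in pup 2 and 1.35 in pup 1.

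**Figure D2:**
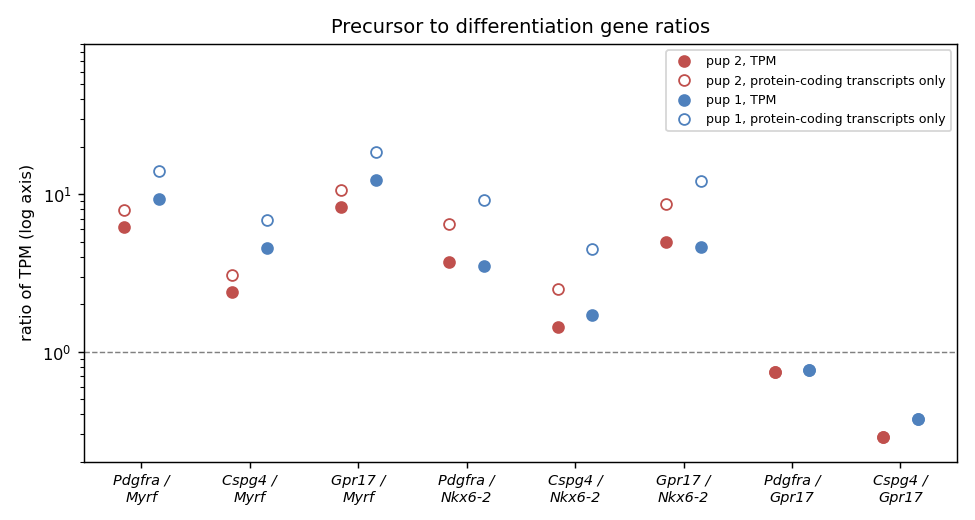
Ratios of TPM within each library (log axis) for precursor or committed-stage genes over later ones, in pup 2 (left points) and pup 1 (right points). Filled points use all transcripts and open points only those annotated as protein coding; the dashed line is a ratio of 1, and both ratios over Gpr17 lie below it, with open and filled points on top of each other.

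None of the 10 genes differed at least 2-fold between the pups, against 0.473% of the 13544 gene rows averaging 100 counts or more (0.413% higher and 0.0591% lower in pup 2). Log2 ratios are of counts scaled with edgeR's TMM factors, pup 2 over pup 1, and so are relative to the bulk of genes. Myrf had the highest, 0.66 (1.58-fold), with a 95% interval from 0.38 to 0.96 that covers counting error only. Olig2 followed at 0.54 (1.45-fold, interval 0.41 to 0.67). For scale, the 5th to 95th percentile of the 3524 genes with counts within 1.5 times those of Olig2 ran from -0.25 to 0.26, and of the 1931 such genes for Myrf from -0.40 to 0.50. Nkx2-2 was at 0.27, Olig1 at 0.17, Sox10 at 0.17, Gpr17 at 0.14, Pdgfra at 0.10 and Sox8 at 0.06. Nkx6-2 was at -0.08 and Cspg4 at -0.23.

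The TPM intervals of Olig1, Olig2 and Myrf lay apart with pup 2 higher, 3 of 10 against 7.72% of gene rows, and those of Cspg4 with pup 2 lower, 1 of 10 against 15.9%. The counting interval of the log2 ratio lay above 0 for 7 of the 10 genes, against 22.5% of gene rows, and below 0 for 1, against 21.2%. On TMM scaling 8 of the 10 genes were higher in pup 2, against 50.3% of gene rows. On TPM 7 were, since Sox8 turned. Scaling to spike-in totals, of 603 counts in pup 2 and 335 in pup 1, moved the median of all genes to -0.29 and left only Olig2 at 0.25 and Myrf at 0.37 above 0. The median log2 ratio of the 10 genes was 0.15, against 0.00 over all rows with that count.

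**Figure D3:**
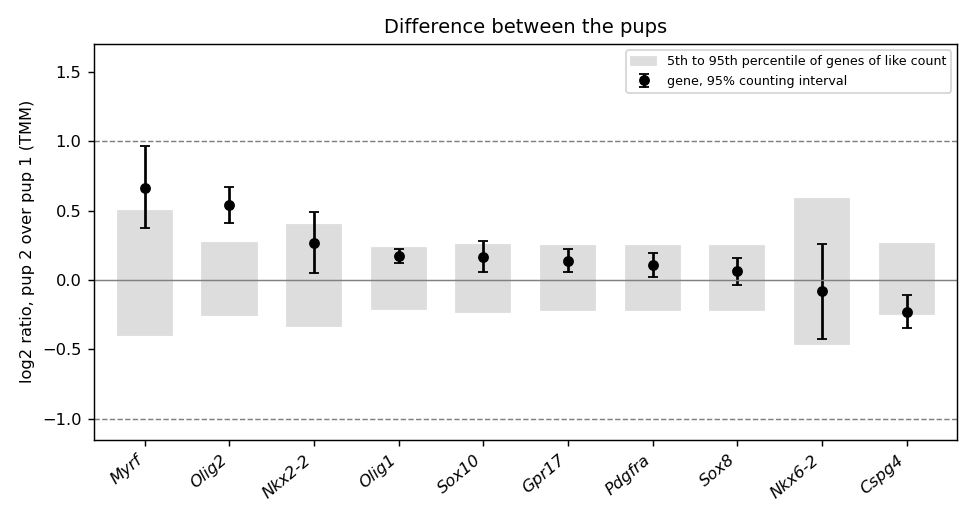
Log2 ratio of pup 2 over pup 1 after TMM scaling for each gene, with the 95% counting interval. Grey boxes give the 5th to 95th percentile of genes with counts within 1.5 times those of the gene and dashed lines mark 2-fold; Myrf at 0.66 and Olig2 at 0.54 lie above their boxes.

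The annotation sets part of the comparison of isoforms, since Olig1, Olig2, Sox10, Cspg4 and Gpr17 have a single transcript in the deposited tables and so a share of 100%. Shares are percentages of the TPM of the whole gene. Of the 5 genes with several transcripts, 4 had the same leading transcript in both pups, against 89.9% of 10624 gene rows that have several transcripts and average 1 TPM or more. The exception was Nkx6-2.

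Nkx6-2 was led in pup 2 by the protein-coding Nkx6-2-202, at 57.1% against 42.9% for Nkx6-2-201. In pup 1 Nkx6-2-201, annotated as subject to nonsense-mediated decay, led with 61.8% against 38.2%. The intervals of each transcript overlapped between pups, and that of Nkx6-2-202 in pup 1 ran from 0.14 to 2.97 TPM, so the order of the pair is not resolved at this depth. Nkx6-2-201 has the same annotated coding bases, a longer final coding exon and an extra last exon of 246 bases (chr7:139579376-139579621), all 246 of which lie inside exons of Inpp5a on the opposite strand. Inpp5a had 20.6 TPM in pup 2 and 19.3 TPM in pup 1, and without a known strand setting reads of Inpp5a there cannot be told apart from those of Nkx6-2. Counting Nkx6-2-202 alone, Nkx6-2 had 2.54 TPM in pup 2 and 1.74 TPM in pup 1, and Pdgfra over Nkx6-2 was 6.44 and 9.18.

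Myrf was led in both pups by the protein-coding Myrf-201, at 65.3% in pup 2 and 66.9% in pup 1. Myrf-204, which reads into an intron and has no annotated coding sequence, held 21.5% in pup 2 and 33.1% in pup 1. Its own level was nearly equal, 0.57 TPM in pup 2 and 0.56 TPM in pup 1, whereas protein-coding Myrf transcripts summed to 2.07 TPM in pup 2 and 1.14 TPM in pup 1. The point where they part is shown with the shared bases in lower case and the bases after it in capitals, Myrf-201 going on into the next exon and Myrf-204 into the intron.
Myrf-201, chr19:10228653-10228682 then chr19:10225481-10225510: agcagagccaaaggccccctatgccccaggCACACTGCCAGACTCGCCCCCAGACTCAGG
Myrf-204, chr19:10228623-10228682: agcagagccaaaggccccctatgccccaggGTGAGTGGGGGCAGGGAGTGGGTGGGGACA

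Sox8 and Nkx2-2 each had a second protein-coding transcript whose coding sequence ends differently. Sox8-201 held 80.6% in pup 2 and 78.3% in pup 1, and the shorter Sox8-202, which stops soon after running into an intron, held 19.4% and 21.7%. Nkx2-2-201 held 59.4% in pup 2 and 65.8% in pup 1, and Nkx2-2-203, which splices out of the coding exon to a distant last exon, held 14.6% and 9.79%. The non-coding Nkx2-2-202 and Nkx2-2-204 together held 26.0% in pup 2 and 24.4% in pup 1, but Nkx2-2-202, the larger, rested on 16.6 and 9.37 counts. Capitals again mark the coding bases that set each transcript apart, read on the minus strand.
Sox8-201, chr17:25568828-25568857 then chr17:25568052-25568081: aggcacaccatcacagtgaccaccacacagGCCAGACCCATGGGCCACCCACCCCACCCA
Sox8-202, chr17:25568811-25568857: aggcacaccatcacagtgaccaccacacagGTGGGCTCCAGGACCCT
Nkx2-2-201, chr2:147184216-147184275: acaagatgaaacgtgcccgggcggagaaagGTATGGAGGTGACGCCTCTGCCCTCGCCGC
Nkx2-2-203, chr2:147184246-147184275 then chr2:147177915-147177944: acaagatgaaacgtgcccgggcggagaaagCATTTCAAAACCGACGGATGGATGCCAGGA

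Pdgfra transcripts differ in their first exon, and so in where transcription starts. Pdgfra-201 held 93.0% in pup 2 and 95.8% in pup 1, and Pdgfra-202, whose annotated start lies 3593 bases further into the gene, held 6.99% and 4.19%. Both starts were read from M21, whose models differ in length from the deposited ones. Pdgfra-201 has 6549 bases in M21 and 6553 as deposited, and Pdgfra-202 has 6834 and 6570. The intervals of Pdgfra-202 were wide, 0.12 to 2.57 TPM in pup 2 and 0.045 to 4.06 in pup 1. From posterior mean values, Pdgfra-201 held 91.4% in pup 2 and 91.6% in pup 1. The 250 bases before the RefSeq start of Pdgfra are shown (RefSeq, GRCm38.p6, chr5:75152001-75152250, plus strand). They end short of the M21 start of Pdgfra-201, at chr5:75152306. The one match to the E-box letters CANNTG, searched on both strands, is in capitals.
Pdgfra upstream bases: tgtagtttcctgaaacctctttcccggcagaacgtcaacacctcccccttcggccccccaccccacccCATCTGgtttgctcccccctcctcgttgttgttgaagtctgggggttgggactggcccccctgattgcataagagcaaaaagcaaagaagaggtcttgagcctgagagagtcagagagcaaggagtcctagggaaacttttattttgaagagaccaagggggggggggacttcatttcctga
E-boxes are the letters that helix-loop-helix factors such as the Olig proteins bind, but 66.2% of 32851 RefSeq promoter windows of this length hold at least 1, so the match is a description only. The letters TATAAA, found in 12.4% of these windows, were not in this one.

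**Figure D4:**
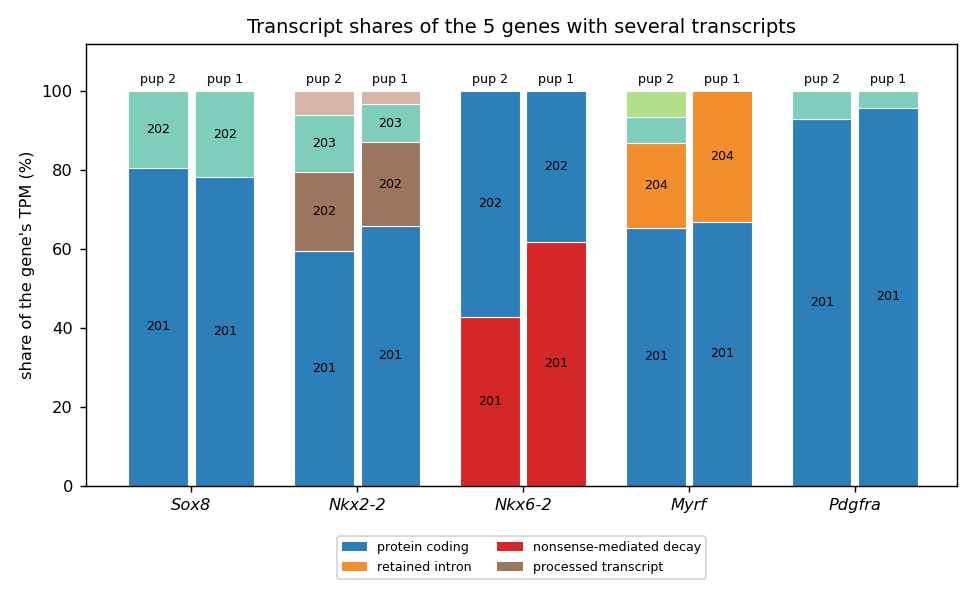
Share of each gene's TPM by transcript for the 5 genes with several transcripts, in pup 2 (left bar) and pup 1 (right bar); numbers are the transcript suffixes, and blue and green shades are all protein coding. Nkx6-2 is led by transcript 202 in pup 2 (57.1%) and by 201 in pup 1 (61.8%), while the other 4 genes keep their leader.

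Other opposite-strand genes also share exon bases with members, and their reads cannot be told apart without a strand setting. The antisense gene 2810468N07Rik shares 329 exon bases with the first exon of Sox8 and had 15.0 TPM in pup 2 and 12.5 TPM in pup 1. Lims2 shares 188 bases with Gpr17 and had 13.7 and 12.3 TPM. Nkx2-2os shares 278 bases with Nkx2-2 but stood at 0.14 and 0.12 TPM. No gene with a row in the tables shares exon bases with Olig1, Olig2, Sox10, Myrf or Cspg4, and only a microRNA gene at 0 counts does with Pdgfra.

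Beside the regulators, most genes of later stages had higher values in pup 2 on TMM scaling. Of 9 committed precursor and new oligodendrocyte genes averaging 100 counts or more, all 9 had a TMM log2 ratio above 0, where 50.3% of all rows did. Their median was 0.30, and 1 passed 2-fold, where 0.413% of all rows did. That gene was Enpp6, a phosphodiesterase of newly formed oligodendrocytes, at 10.3 TPM in pup 2 and 2.84 TPM in pup 1 (3.78-fold). Of 11 myelin genes with that count, 9 were above 0, the median was 0.86 and 4 passed 2-fold, among them Mobp (5.44-fold), Cldn11 (2.13-fold) and Mag (2.03-fold). The myelin list summed to 850 TPM in pup 2 and 488 TPM in pup 1. Precursor markers had a median of -0.08, with 4 of 9 above 0 and none past 2-fold. Among the regulators, Pdgfra was at 0.10, Cspg4 at -0.23, Gpr17 at 0.14, Nkx6-2 at -0.08 and Myrf at 0.66. On spike-in scaling the medians were -0.38 for precursor markers, 0.01 for committed precursor genes (6 of 9 above 0) and 0.56 for myelin genes (7 of 11 above 0, 2 past 2-fold).

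Factors known to oppose or promote differentiation had medians near 0 on TMM scaling. All 10 of 10 opposing factors reached a TPM of 1 in both pups, led by the helix-loop-helix inhibitors Id2 at 273 TPM in pup 2 and 254 TPM in pup 1 and Id4 at 144 in each, and none passed 2-fold. Their median log2 ratio was 0.03, and the highest was Bmp4, a ligand that diverts precursors, at 0.73. The 10 promoting factors were detected too, from the chromatin enzyme Hdac2 at 171 TPM in each pup down to Zfp488, a repressor that acts with Olig2, at 1.84 and 1.78 TPM, with a median log2 ratio of 0.02. Of 8 precursor mitogens 6 were detected, and Pdgfa, the ligand of the Pdgfra receptor, was highest at 57.7 TPM in pup 2 and 51.8 TPM in pup 1.

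Markers of other cells that use these genes were present, and their part in the members' levels was not tested. Schwann cell and neural crest markers, cells that share Sox10, were detected for 6 of 8 and summed to 207 TPM in each pup, with none at 0. Pericyte markers, cells that share Cspg4, were detected for 8 of 8 and summed to 175 TPM in pup 2 and 155 in pup 1. Vtn carried most of that sum, and the median log2 ratio of the 8 was -0.22, beside -0.23 for Cspg4. Fibroblast and meningeal markers, cells that share Pdgfra, were detected for 8 of 8, summed to 1179 TPM in pup 2 and 951 in pup 1, and had a median of 0.41, beside 0.10 for Pdgfra. No marker of either list was at 0. Floor plate and V3 markers, which neighbour the Nkx2-2 domain, were detected for 2 of 7. The detected ones were Spon1, at a mean of 47.5 TPM over the pups, and Ntn1, at a mean of 17.5 TPM. Among those below 1 TPM, Sim1 was at 0.12 TPM in pup 2 and 0.16 in pup 1, and Foxa2 at 0.66 and 0.68 TPM.

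**Figure D5:**
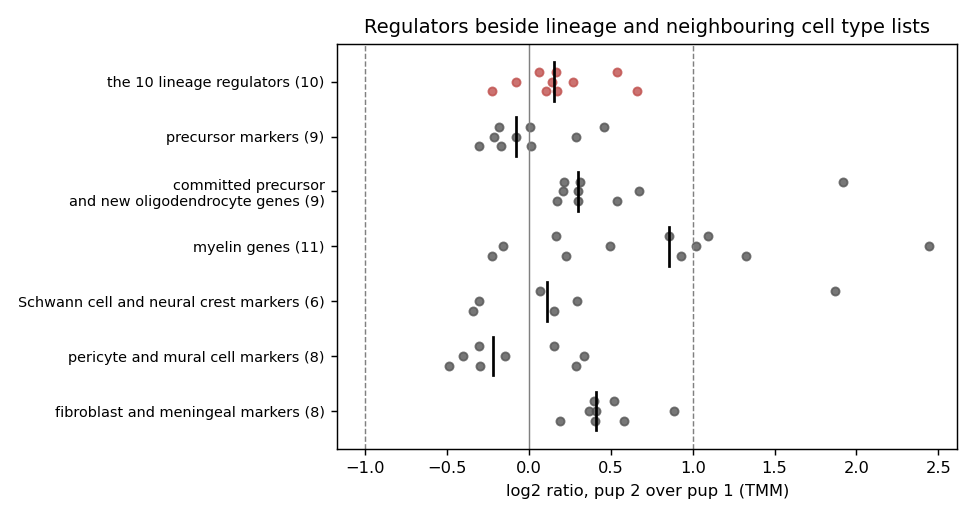
Log2 ratio of pup 2 over pup 1 after TMM scaling for the 10 regulators (red) and for genes of 6 lists averaging 100 counts or more (grey), with the number of genes in brackets and the median as a black bar. Dashed lines mark 2-fold; the TMM medians are 0.15 for the regulators, 0.30 for committed precursor genes and 0.86 for myelin genes.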

How the data were processed

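The authors deposited 1 gene table and 1 transcript table for each pup. The columns, per the file headers, are expected counts (estimates, often fractional), TPM, posterior mean values, interval bounds of TPM (deposited as a signal on the TPM scale, with no stated level) and, for transcripts, the percent share of each gene's TPM. The bounds lie around the posterior mean, so the TPM of Olig1 fell outside its own interval in each pup. Build mm10 and annotation GENCODE M4 are named in the submitters' processing notes. For the aligner, the counting tool's version and the strand setting, nothing is stated by the sources used here. Per the labels, 10 ng of RNA above 200 bases entered each library.

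Gene IDs were looked up for symbols and positions in the M21 release of GENCODE (also GRCm38), ignoring versions, and 42462 of 43346 gene rows matched. Of 22 deposited member transcripts, 18 have the same length in M21. tRNA, spike-in and phiX rows were left out. Expected counts were rounded, TMM factors were computed with edgeR 4.0.16 (R 4.3.3) over genes averaging 10 counts or more, and log2 ratios used a prior count of 2. DESeq2 1.42.0 gave alternative size factors. Other steps used Python 3.11.15, pandas 2.3.3, numpy 2.4.6, scipy 1.17.1 and matplotlib 3.10.9. The ratio step was tested on simulated data. Intervals cover counting error only, and a count of 0 allows up to 0.075 CPM in pup 2 and 0.111 in pup 1. RefSeq promoter windows were found for 6 of 10 members.

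All 10 members are named, and from each gene list the 2 highest and the lowest gene and any gene past 2-fold, with values given where they touch a member; a few of these genes are not reported here. The member set and the lists were chosen with earlier results of these data known, and the tissue check genes after the files were seen. 9630013A20Rik, of the committed precursor list, matched no row.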

Additional observations from a re-analysis of the deposited data

How the results depend on the processing

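No paired analysis was possible because the 2 libraries form 1 group. The count of 10 detected members was 10 to 10 with either pup left out, where it could not fall, and 10 with posterior mean TPM, and 8 members reached a TPM of 5 in both pups. No member passed 2-fold with DESeq2 size factors, library totals, spike-in totals or a filter of 10 mean counts. The summed precursor to differentiation ratio of 0.826 ran from 0.78 to 0.872 with either pup left out. It was 1.27 on expected counts not divided by length, and, in settings chosen after seeing the data, 0.924 with protein-coding transcripts only and 3.51 without Gpr17 in the denominator. The last 3 shifts follow from what is summed or divided by. Over all 18 ratios, 14 moved by more than the spread between the pups on counts not divided by length, and 11 with protein-coding transcripts only. The direction of 6 members between pups turns on spike-in scaling, which rests on 603 counts in pup 2 and 335 in pup 1. With posterior mean values, the mean share of Pdgfra-201 went from 94.4% to 91.5% and that of Myrf-201 from 66.1% to 58.6%. Both moved by more than the spread between the pups, and the shares of Sox8-201, Nkx2-2-201 and Nkx6-2-201 did not. Depth limits the transcript shares of Myrf, with 324 and 139 counts, and of Nkx6-2, with 172 and 124.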

Other observations

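Relatives of the members from the same gene families covered a wide range. Sox9, the third SOXE gene and a factor of glial progenitors, was at 35.9 TPM in pup 2 and 39.3 TPM in pup 1, near the level of Sox8. Olig3, a factor of dorsal progenitors, was at 8.37 and 8.66 TPM. Nkx6-1, a ventral progenitor and motor neuron factor, was at 7.39 and 7.16 TPM, above its paralog Nkx6-2. Myrfl, the paralog of Myrf, was at 0.02 and 0.1 TPM, and Nkx2-1 had 0 counts in both libraries. Sox3, a progenitor factor, was at 3.01 TPM in pup 2 and 1.59 in pup 1, with a TMM log2 ratio of 0.96, the highest among the 5 relatives averaging 100 counts or more. The E proteins that pair with Olig factors were detected for 3 of 3, with Tcf4 highest at 87.9 TPM in pup 2 and 99.9 in pup 1.

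Astrocyte markers were detected for 8 of 8, progenitor markers for 7 of 7 and proliferation genes for 6 of 6. Their median TMM log2 ratios were -0.02, -0.06 and 0.00.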
